A study of Mus musculus with 6 samples.

Results

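The genes described here are the ligands and receptors of vascular endothelial growth factor (VEGF) and angiopoietin signalling. They comprise 5 ligands (Vegfa, Vegfb, Vegfc, Angpt1 and Angpt2) and 5 receptors (Flt1, Kdr, Flt4, Tek and Tie1), which were taken by gene symbol from the 56980 genes listed in the data, and all 10 were found. Single-nucleus RNA sequencing had been performed on white adipose tissue of female C57BL/6J mice, an inbred strain, and no transgene or treatment is named in the labels. The 6 libraries form 3 groups of 2, namely subcutaneous adipose tissue (SAT, the inguinal depot) of mice aged 2 months, SAT of mice aged 24 months, and visceral adipose tissue (VAT, the gonadal depot) of mice aged 24 months. The design text gives a higher age for the old mice than the sample labels do, and the age on the labels is used throughout. Every library carries the same date, so no batch could be compared. By the study's account there were 2 mice per age, so the 2 libraries of a group would be different mice and both depots at 24 months would come from the same mice. The labels do not tie libraries to mice, so the depots were compared without pairing, and p-values rest on the spread between 2 libraries a group. VAT at 2 months was not analysed here.

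VEGF-A, encoded by Vegfa, is the main growth and survival factor of blood vessels and is induced when cells lack oxygen. It binds VEGFR2 (Kdr), the main signalling receptor of blood endothelium, and VEGFR1 (Flt1), which binds it tightly, signals weakly and also takes up VEGF-B (Vegfb). VEGF-C (Vegfc) drives the growth of lymphatic vessels through VEGFR3 (Flt4). Angiopoietin-1 (Angpt1) activates the receptor Tie2 (Tek) and keeps vessels quiescent, angiopoietin-2 (Angpt2) can oppose it, and Tie1 is a related receptor that modulates Tie2. Fat is a tissue in which vessels grow and regress with the adipocytes they supply, and adipocytes are a known source of VEGF-A.

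After filtering, 27074 of 50859 deposited barcodes remained, with 5262801 to 11480055 unique molecular identifiers (UMIs) per library and median depths of 1380 to 1878 UMIs per nucleus. Nuclei were grouped by clustering without the 10 genes, and clusters were named from marker genes, so that each name stands for a candidate identity. The cell type label of every library is adipocytes, yet adipocytes made up 7205 of the 27074 nuclei, and T cells, macrophages, fibro-adipogenic progenitors (FAPs), endothelial, mammary epithelial and mesothelial nuclei were found beside them. VAT replicate 2 stood apart from the other libraries, since it alone held steroidogenic ovarian (329 nuclei), oviduct secretory (661) and multiciliated (159) nuclei, along with 1388 mesothelial nuclei and 150 adipocytes. In its FAPs the summed level of the mesothelial marker list was 2231.1 CPM (UMIs per 1000000 UMIs) and that of the steroidogenic list 604 CPM, against 0 to 220 CPM and 13.7 to 58.8 CPM in FAPs of the other libraries, and no mesothelial marker was at 0. Mammary epithelial nuclei were found in SAT alone. Libraries shared at most 0.482% of the barcodes of the smaller library.

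The level of a gene is given as CPM, its UMIs per 1000000 UMIs summed over all nuclei of a class in a library, for libraries with at least 20 nuclei of the class, and no level is compared between genes. In sums over all nuclei, fewer nuclei of a type and less RNA per nucleus cannot be told apart. A UMI can also come from free RNA, and T cells, a large class with neither an adipocyte nor an endothelial identity, serve as the class against which shares of nuclei with a UMI are read. Most T cells came from SAT at 2 months (1318 and 2264 nuclei), and VAT replicate 1 held 9. Their shares thus say little about free RNA in the aged libraries, least of all in VAT replicate 1. All intervals cover counting error only. In GENCODE M39, genes on the opposite strand overlap an exon of 8 of the 10 genes, namely of Vegfa (Gm65021), Vegfb (Trpt1), Vegfc (Gm64018), Angpt1 (Gm17473), Angpt2 (Mcph1), Kdr (Gm32727), Flt4 (1700024J04Rik and Gm73519) and Tie1 (Gm70435, which contains it). For Flt1 such overlaps lie outside its exons, and Tek has none. The strand setting of the counting is not given in the sources used here, and without strand the reads of overlapping genes cannot be told apart.

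The receptors Flt1, Kdr, Tek and Tie1 were each counted in blood vascular endothelial nuclei of every library, so their promoters are shown. Each line holds the 250 bases before the RefSeq start (GRCm38.p6), 5′ to 3′ on the strand of the gene, and capitals mark the letters GGAA or TTCC, the core of ETS motifs read on both strands. The regions are chr5:147726012-147726261 for Flt1, chr5:75978456-75978705 for Kdr (both on the minus strand), chr4:94739039-94739288 for Tek (plus strand) and chr4:118489850-118490099 for Tie1 (minus strand).
Flt1: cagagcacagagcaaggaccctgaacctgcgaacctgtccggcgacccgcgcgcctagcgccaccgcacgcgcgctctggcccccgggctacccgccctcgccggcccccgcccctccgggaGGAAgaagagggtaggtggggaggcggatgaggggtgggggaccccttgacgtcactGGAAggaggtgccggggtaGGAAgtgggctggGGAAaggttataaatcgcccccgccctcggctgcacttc
Kdr: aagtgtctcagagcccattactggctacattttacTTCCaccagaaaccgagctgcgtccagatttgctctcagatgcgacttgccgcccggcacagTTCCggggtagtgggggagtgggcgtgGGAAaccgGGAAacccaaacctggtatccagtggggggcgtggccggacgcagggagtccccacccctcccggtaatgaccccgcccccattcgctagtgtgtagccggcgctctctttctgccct
Tek: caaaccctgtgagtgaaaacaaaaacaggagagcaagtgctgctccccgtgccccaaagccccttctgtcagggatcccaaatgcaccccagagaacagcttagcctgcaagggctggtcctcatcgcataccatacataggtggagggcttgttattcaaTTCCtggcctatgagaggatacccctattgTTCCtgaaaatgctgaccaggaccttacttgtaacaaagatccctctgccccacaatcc
Tie1: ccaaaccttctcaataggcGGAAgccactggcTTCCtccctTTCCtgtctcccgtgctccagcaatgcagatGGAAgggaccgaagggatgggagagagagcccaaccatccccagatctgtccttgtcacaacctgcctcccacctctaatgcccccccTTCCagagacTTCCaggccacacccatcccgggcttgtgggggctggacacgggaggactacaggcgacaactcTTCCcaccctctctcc

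The core letters occurred 4 times before Flt1, 4 times before Kdr, 2 times before Tek and 7 times before Tie1. Of 32851 mouse promoters of the same length, 93.4% held at least 1 match, with a median of 3, and 33.4%, 33.4%, 76.8% and 3.82% held as many as these 4 in the same order. A match describes letters and is not shown to be a binding site. RefSeq promoters were matched for 8 of the 10 genes, not for Angpt1 and Angpt2.

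Vegfa (chr17:46327919-46343309, minus strand, GRCm39), the VEGF-A gene, was counted mainly in adipocytes. Its level there was 1659.2 and 1980.4 CPM in SAT at 2 months, 816 and 954 CPM in SAT at 24 months, and 819 and 886 CPM in VAT at 24 months. Both young libraries lay above all 4 aged libraries, and the aged depots overlapped. The mean over libraries was 1185.9 CPM ± 504 (SD, n = 6) in adipocytes and 199 CPM ± 71.2 (n = 6) in FAPs, and every adipocyte value lay above every FAP value. Skeletal muscle nuclei, with 525 CPM ± 320 (n = 2, 53 UMIs), came between them. At least 1 Vegfa UMI was found in 76.9% of adipocytes (57.1% after thinning each nucleus to 1000 UMIs), 19.8% of FAPs (14.8%), 21.2% of mammary epithelial nuclei (9.15%) and 3.27% of T cells (2.30%), at median depths of 1988, 1407, 2207 and 1310 UMIs.

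Adipocytes gave 76.2% and 67.2% of all Vegfa UMIs in SAT at 2 months, 81.4% and 82.7% in SAT at 24 months, and 88.0% in VAT replicate 1. Those shares exceeded the class's shares of all UMIs, which were 18.9%, 8.68%, 27.6%, 48.5% and 72.8% in the same order. In VAT replicate 2, which held few adipocytes, the class gave 25.5% of Vegfa UMIs and 4.14% of all UMIs.

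**Figure D1:**
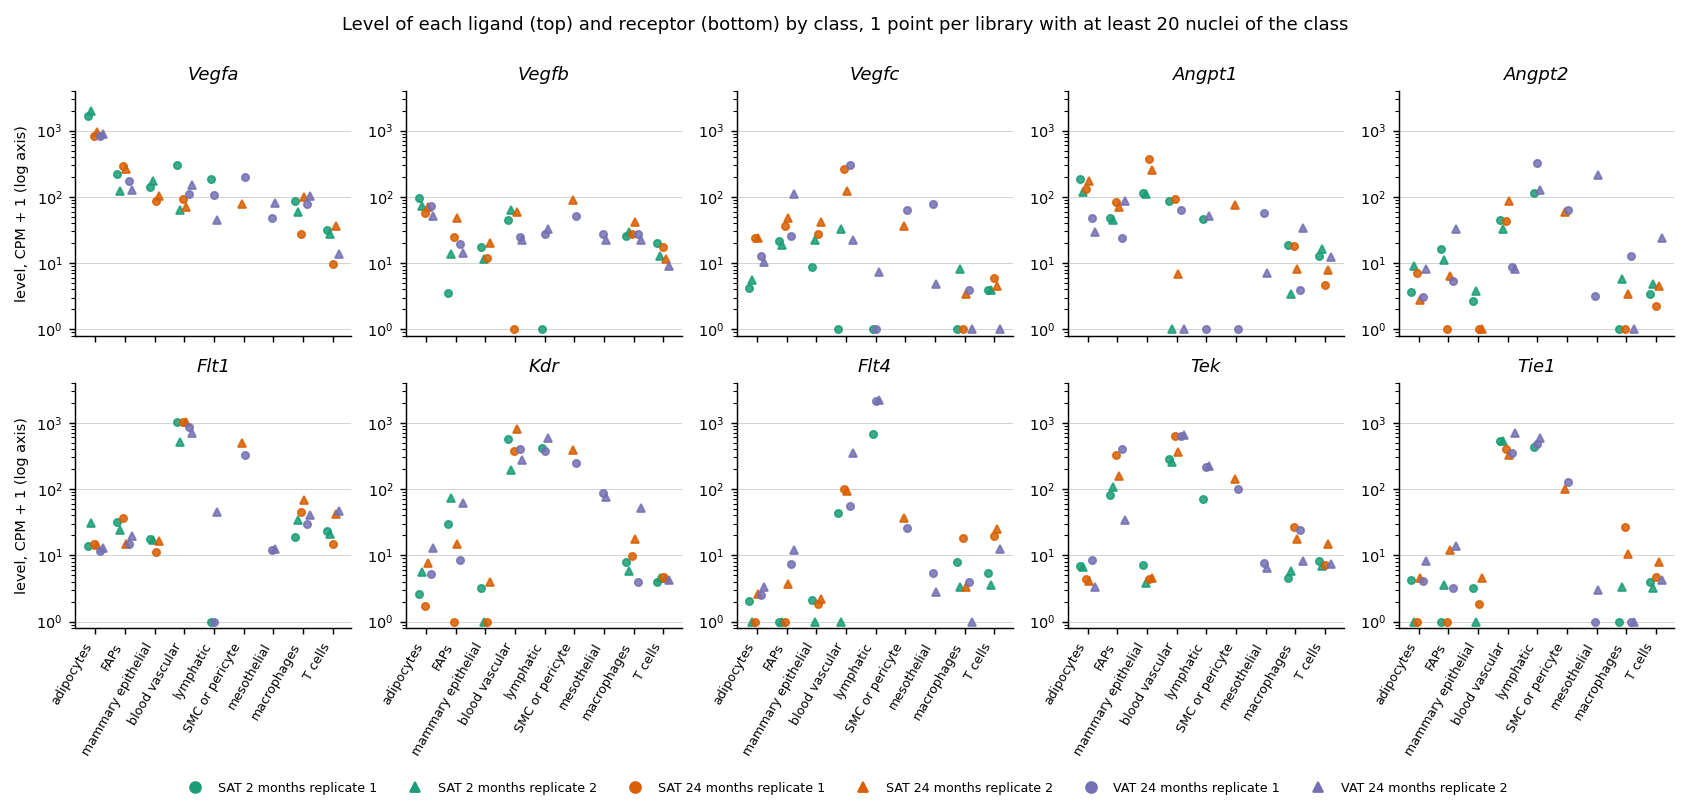
Level of each ligand (top row) and receptor (bottom row) in 9 classes of nuclei, as CPM + 1 on a log axis, with 1 point per library that held at least 20 nuclei of the class (colour for group, shape for replicate). Vegfa is highest in adipocytes of every library, Flt1 in blood vascular nuclei, and Flt4 in lymphatic nuclei.

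Vegfb (chr19:6958447-6965127, minus strand), which encodes a VEGFR1 ligand linked to lipid-burning tissues, was at low levels in many classes. In adipocytes its level was 95.7 and 71.3 CPM in SAT at 2 months, 55.1 and 69.8 CPM in SAT at 24 months, and 71.8 and 49.8 CPM in VAT, and VAT overlapped both ages of SAT. The mean was 68.9 CPM ± 16 (n = 6) in adipocytes and 69.9 CPM ± 28.2 (n = 2) in smooth muscle or pericyte nuclei, which do not differ beyond their spread. A Vegfb UMI was found in 13.2% of adipocytes (6.33% thinned) and in 1.61% of T cells (1.11%). Trpt1, which overlaps Vegfb, ranged from 6.89 to 27.2 CPM in adipocytes of the 6 libraries.

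Vegfc (chr8:54530257-54640131, plus strand), the gene of the lymphatic growth factor VEGF-C, was sparse and spread over several classes. Blood vascular endothelial nuclei had 122 CPM ± 129 (n = 6), smooth muscle or pericyte nuclei 48.8 ± 19.3 (n = 2), FAPs 42.2 ± 33.8 (n = 6), mesothelial nuclei 41 ± 52.7 (n = 2), mammary epithelial nuclei 24.2 ± 13.7 (n = 4) and adipocytes 12.4 ± 8.57 (n = 6), and each overlapped the next. Lymphatic endothelial nuclei, which carry its receptor, held 1 Vegfc UMI in 192 nuclei. The level differed among the libraries of a depot too, since mesothelial nuclei had 78.3 CPM in VAT replicate 1 and 3.78 CPM in replicate 2, and FAPs 24.8 and 108 CPM. A Vegfc UMI was found in 10.3% of blood vascular nuclei (8.27% thinned) and 2.68% of adipocytes (1.19%), against 0.377% of T cells (0.251%).

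Angpt1 (chr15:42288058-42540417, minus strand), the gene of the Tie2 agonist, was counted mainly in adipocytes and mammary epithelial nuclei. In adipocytes its level was 187 and 119 CPM in SAT at 2 months, 131 and 170 CPM in SAT at 24 months, and 47.3 and 28.4 CPM in VAT. Every SAT library lay above both VAT libraries. In mammary epithelial nuclei it was 112 and 108 CPM in SAT at 2 months and 368 and 256 CPM at 24 months, which did not overlap. An Angpt1 UMI was found in 31.3% of mammary epithelial nuclei (18.0% thinned), 15.3% of adipocytes (9.33%), 6.80% of FAPs (4.57%) and 1.42% of T cells (1.09%). Smooth muscle or pericyte nuclei, a known source of angiopoietin-1, had 74.3 CPM of Angpt1 in SAT 24 months replicate 2 (19 UMIs) and no UMI in VAT replicate 1, which allows up to 37.5 CPM. Gm17473, which overlaps Angpt1, was at 0 to 5.37 CPM in adipocytes and 1.89 to 9.49 CPM in mammary epithelial nuclei.

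**Figure D2:**
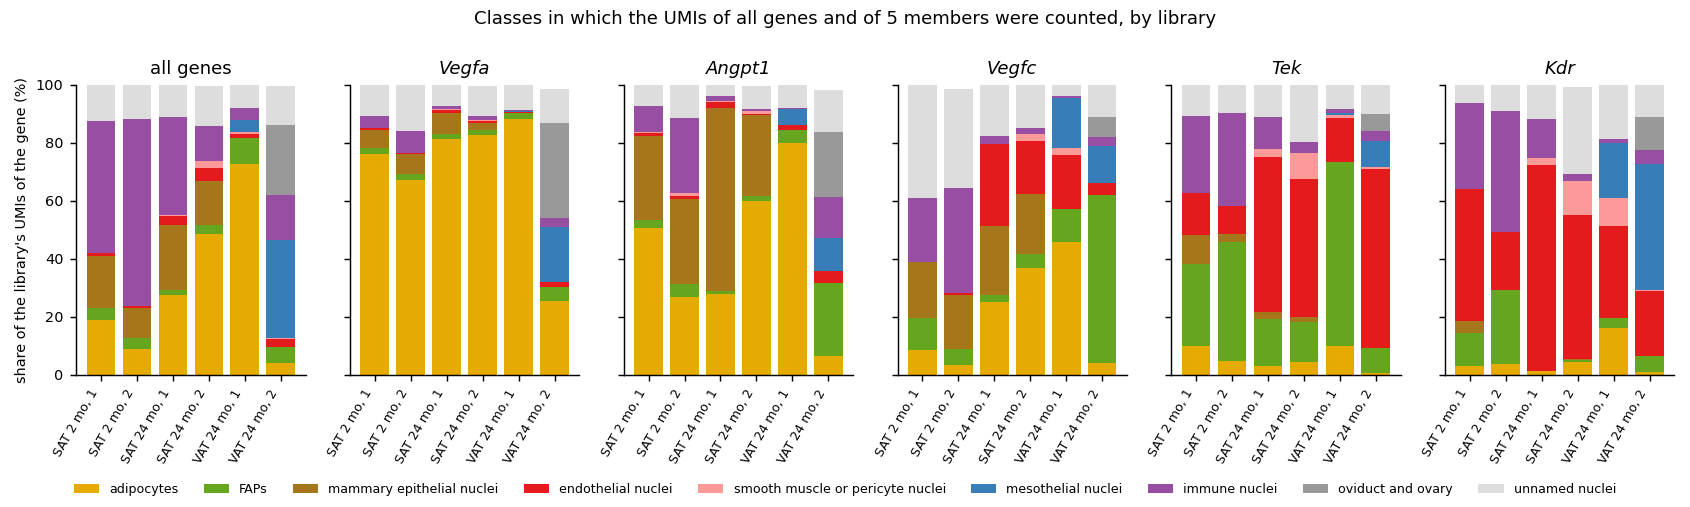
Share of each library's UMIs (%) by class of nuclei, for all genes and for Vegfa, Angpt1, Vegfc, Tek and Kdr, with 1 bar per library. Adipocytes hold 67.2% to 88.0% of Vegfa UMIs in 5 libraries, while FAPs hold 63.4% of Tek UMIs in VAT replicate 1 and mesothelial nuclei 43.3% of Kdr UMIs in VAT replicate 2.

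Angpt2 (chr8:18739202-18791603, minus strand), whose product is stored in endothelial cells and released on activation, ranged from 1.80 to 7.93 CPM in adipocytes. In lymphatic endothelial nuclei its mean was 186 CPM ± 116 (n = 3), and in blood vascular nuclei 36.4 CPM ± 29.4 (n = 6) without overlap, though the lymphatic values rested on 5, 12 and 20 UMIs. Mesothelial nuclei had 210 CPM in VAT replicate 2 (721 UMIs) and 2.24 CPM in VAT replicate 1 (1 UMI), a ratio of 93.7 with a 95% counting interval of 16.8 to 3707.5. These libraries held different mesothelial clusters, led by Upk1b, Plxna4 and Lgr5 in replicate 2 (1219 of its nuclei, 224 CPM) and by Nxph1 and Sntg1 in replicate 1 (247 nuclei, 2.24 CPM). T cells of VAT replicate 2 had 22.6 CPM of Angpt2 and those of the other libraries 1.24 to 3.87 CPM. Angpt2 lies wholly inside Mcph1 on the opposite strand, and Mcph1 was at 55.9 and 53.7 CPM in the mesothelial nuclei of VAT replicates 2 and 1.

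Flt1 (chr5:147498414-147662826, minus strand), the VEGFR1 gene, was highest in blood vascular endothelial nuclei of every library. Its level there was 1010.3 and 506 CPM in SAT at 2 months, 1024.9 and 1038.1 CPM in SAT at 24 months, and 866 and 710 CPM in VAT. The mean of 859 CPM ± 214 (n = 6) lay above the 407 CPM ± 116 (n = 2) of smooth muscle or pericyte nuclei without overlap, but those nuclei also held endothelial markers, at 1948.8 and 1841.3 summed CPM in the libraries with at least 20 of them. Lymphatic endothelial nuclei had 0 to 43.7 CPM in the 3 libraries with at least 20 nuclei. A Flt1 UMI was found in 64.7% of blood vascular nuclei (52.3% thinned), 5.21% of lymphatic nuclei (4.17%), 4.86% of macrophages (3.52%) and 2.93% of T cells (2.2%).

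Kdr (chr5:76093487-76139884, minus strand), the VEGFR2 gene, was counted in both kinds of endothelial nuclei, at 457 CPM ± 114 (n = 3) in lymphatic and 434 CPM ± 223 (n = 6) in blood vascular nuclei, which overlapped. Smooth muscle or pericyte nuclei, which also held endothelial markers, had 320 CPM ± 99.8 (n = 2) of Kdr and overlapped blood vascular nuclei. Mesothelial nuclei of VAT held it at 87.3 and 73.9 CPM, below these classes and above T cells at 2.89 to 3.73 CPM. A Kdr UMI was found in 13.2% of mesothelial nuclei (6.66% thinned), 47.2% of blood vascular nuclei (36.8%), 50.5% of lymphatic nuclei (41.1%) and 0.398% of T cells (0.230%). Through the number of mesothelial nuclei, 43.3% of the Kdr UMIs of VAT replicate 2 came from them and 22.5% from endothelial nuclei.

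Flt4 (chr11:49500090-49543582, plus strand), the VEGFR3 gene, marked lymphatic nuclei, with 1662.3 CPM ± 847 (n = 3) against 105 CPM ± 122 (n = 6) in blood vascular nuclei and no overlap. A Flt4 UMI was found in 75.0% of lymphatic nuclei (66.7% thinned), 15% of blood vascular nuclei (9.59%) and 0.628% of T cells (0.545%). In the lymphatic nuclei it was 685 and 655 CPM in SAT at 2 months (24 and 19 nuclei), 600 and 899 CPM in SAT at 24 months (10 and 10 nuclei), and 2133.6 and 2168.3 CPM in VAT (22 and 107 nuclei). Both VAT libraries lay above all SAT libraries, but only 1 SAT library held 20 lymphatic nuclei, so that class was not tested. Of the genes overlapping Flt4, 1700024J04Rik was at 0 CPM in the lymphatic nuclei of SAT 2 months replicate 1 and 26.7 and 50 CPM in those of VAT.

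Tek (chr4:94627291-94763224, plus strand), the Tie2 gene, was counted outside the endothelium too. Smooth muscle or pericyte nuclei, which also held endothelial markers, had 120 CPM ± 28.8 (n = 2). FAPs, the fibroblast lineage from which adipocytes form, had 79.8 and 108 CPM in SAT at 2 months, 330 and 156 CPM in SAT at 24 months, and 405 and 33.5 CPM in VAT. The VAT replicates were thus the highest and the lowest of all FAP values, and the low one is the library in which FAPs carried mesothelial markers and the FAP list summed to 4077.4 CPM, against 11451.6 to 22953.1 CPM elsewhere. What part those nuclei had in the Tek level was not tested. The endothelial marker list summed to 23.5 to 90.0 CPM in FAPs, against 2946.0 to 6034.4 CPM in endothelial nuclei. In the FAPs of SAT 24 months replicate 1 (58 nuclei, Tek at 330 CPM) 6 of the 8 endothelial markers were at 0, which allows up to 35.3 CPM each, and in the other libraries 4 to 7 of the 8 had a UMI in FAPs.

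Within the FAPs, the cluster led by Pi16 and Fndc1 (656 nuclei) had 315 CPM of Tek and the one led by Col1a2 and Lama2 (901 nuclei) 132 CPM. The Pi16 cluster was the higher one in 5 libraries, with 143 against 64.3 CPM and 141 against 79.3 CPM in SAT at 2 months, 913 against 117 CPM and 244 against 140 CPM in SAT at 24 months, and 634 against 215 CPM in VAT replicate 1. In VAT replicate 2 it was lower, with 18.7 against 55.4 CPM of Tek. A Tek UMI was found in 20.5% of FAPs (15.3% thinned), 43.0% of blood vascular nuclei (32.7%), 1.14% of adipocytes (0.486%) and 0.838% of T cells (0.649%). FAPs gave 63.4% of Tek UMIs in VAT replicate 1 and 8.70% in VAT replicate 2, where endothelial nuclei gave 61.8%.

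Tie1 (chr4:118328385-118347261, minus strand), whose product has no ligand known to be its own in blood endothelium, was at 500 CPM ± 78.8 (n = 3) in lymphatic and 474 CPM ± 145 (n = 6) in blood vascular nuclei, which overlapped. It was at 111 CPM ± 19.2 (n = 2) in smooth muscle or pericyte nuclei, 0 to 13 CPM in FAPs and 0 to 7.11 CPM in adipocytes. A Tie1 UMI was found in 44.2% of blood vascular nuclei (32.3% thinned), 43.8% of lymphatic nuclei (34.9%), 0.680% of FAPs (0.494%) and 0.419% of T cells (0.335%). FAPs thus held Tek, with Tie1 near its share in T cells.

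Most nuclei with a ligand UMI were adipocytes, while endothelial nuclei, FAPs and mesothelial nuclei held UMIs of both ligands and receptors. At least 1 UMI of any ligand was found in 10895 of 27074 nuclei (40.2%, or 29.2% thinned), and 54.4% of them were adipocytes. At least 1 UMI of any receptor was found in 3316 nuclei (12.2%, or 8.57% thinned). Of endothelial nuclei, 92.8% (672 of 724, or 86.7% thinned) bore a receptor, yet they made up 20.3% of all receptor-bearing nuclei, because the class is small. FAPs made up 12.9% of those nuclei, adipocytes 12.5% and T cells 7.42%. The share of adipocytes with a receptor UMI (2.89% thinned) lay below that of T cells (3.92% thinned). Kdr alone went the other way, with 0.527% of adipocytes against 0.23% of T cells (thinned). The part of free RNA in these shares was not tested. For the Tie receptors alone, FAPs made up 24.3% of the 1398 nuclei with a Tek or Tie1 UMI and endothelial nuclei 32.7%. Another part of the receptor UMIs lay in clusters that stayed unnamed, which held 3199 nuclei. An example is 123 nuclei led by Aqp1 and Gpihbp1 with 764 CPM of Vegfa, 316 CPM of Flt1 and 237 CPM of Kdr.

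**Figure D3:**
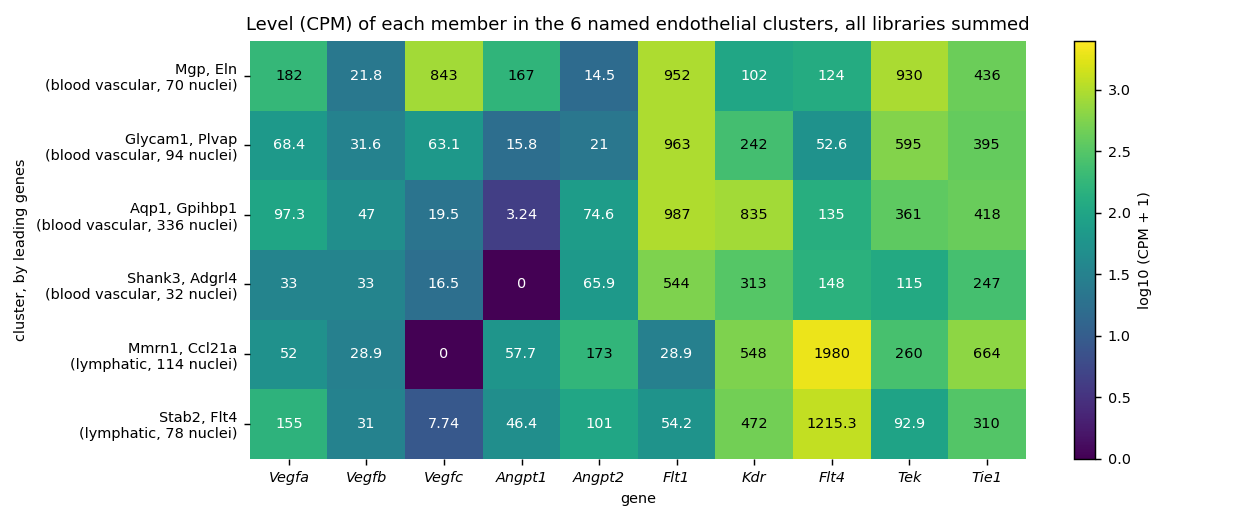
Level of each gene (CPM printed in each cell, colour by log10 of CPM + 1) in the 6 named endothelial clusters, summed over libraries and named by 2 of their leading genes. Vegfc and Tek are highest and Kdr is lowest in the Mgp and Eln cluster, and Flt4 is high in both lymphatic clusters.

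The members were unequally distributed within the endothelium. The blood vascular cluster led by Mgp, Eln and Sema3g (70 nuclei) had 843 CPM of Vegfc, 930 of Tek, 167 of Angpt1 and 102 of Kdr. The cluster led by Aqp1, Gpihbp1 and Cldn5 (336 nuclei), genes of fat capillaries, had 19.5 CPM of Vegfc, 361 of Tek, 3.24 of Angpt1 and 835 of Kdr. Flt1 was at 952 and 987 CPM and Tie1 at 436 and 418 CPM in these 2 clusters. A cluster led by Glycam1 and Plvap (94 nuclei), genes of high endothelial venules and fenestrated vessels, lay between them with 63.1 CPM of Vegfc, 595 of Tek and 242 of Kdr. These levels describe clusters of the same nuclei and were not tested.

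The order of Vegfc held within the libraries with enough nuclei. In the Mgp and Eln cluster it was 779 CPM (25 UMIs in 15 nuclei) and 1176.1 CPM (56 UMIs in 26 nuclei) in SAT at 24 months and 780 CPM (35 UMIs in 22 nuclei) in VAT replicate 1. In the Aqp1 and Gpihbp1 cluster of those libraries it was 133, 9.65 and 51.1 CPM. SAT at 2 months held 5 nuclei of the Mgp and Eln cluster in replicate 1 and none in replicate 2, and VAT replicate 2 held 2, and no Vegfc UMI was found in them. Of the Aqp1 and Gpihbp1 nuclei, 62.8% came from SAT 24 months replicate 2. Kdr in the Mgp and Eln cluster was at 0 CPM in SAT 2 months replicate 1, 0 and 273 CPM in SAT at 24 months and 0 CPM in VAT replicate 1, and in the Aqp1 and Gpihbp1 cluster of those libraries at 1070.4, 966, 948 and 852 CPM. VAT replicate 2 went the other way, with 376 CPM of Kdr (1 UMI in 2 nuclei) against 245 CPM. Summed over libraries, the lymphatic cluster led by Mmrn1, Ccl21a and Reln (114 nuclei) had 1980 CPM of Flt4, 173 of Angpt2 and 664 of Tie1. The one led by Stab2 and Flt4 (78 nuclei) had 1215.3, 101 and 310 CPM. Levels of these 2 clusters within libraries are not given, and lymphatic Flt4 differed between depots.

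The first comparison asks how the genes differ in SAT between 24 and 2 months. UMIs were summed per library and class and tested with edgeR over all genes that passed its filter on low counts, with genes called where the adjusted p fell under 0.05. In adipocytes 7 of the 10 members passed the filter and 2 were called, Vegfa lower and Vegfc higher at 24 months, while 14.8% of all 12913 genes tested were called, and with 7 genes the 2 calls set no share apart from that. The fold change of Vegfa was -0.88 ± 0.27 on the log2 scale (SE, adjusted p = 0.0489). That call rested at the threshold, since the adjusted p ranged from 0.00984 to 0.359 over 14 alternatives and was 0.155 to 0.359 without any 1 of the 4 SAT libraries, but the direction held in all, from -1.06 to -0.62.

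Within adipocytes, Vegfa was lower at 24 months in each of the 5 clusters. In the cluster led by Fam13a and Acacb it was 1805.4 and 1960.2 CPM at 2 months and 778 and 1155.9 CPM at 24 months, and in the cluster led by Cfd and Adipoq 1642.1 and 2320.5 CPM against 787 and 858 CPM. The other 3 clusters likewise did not overlap between ages. The adipocyte marker list summed to 11426.2 to 14211.3 CPM in the adipocytes of all libraries, while the immune list summed to 417 and 765 CPM in the young and 147 and 96.5 CPM in the aged SAT libraries, and its part in these levels was not tested.

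Vegfc was at 3.22 and 4.53 CPM in the adipocytes of SAT at 2 months (6 and 4 UMIs) and at 22.7 and 22.7 CPM at 24 months (33 and 126 UMIs). The groups did not overlap, and the fold change was 2.75 ± 0.50 on the log2 scale (adjusted p = 0.00364). Over the alternatives it ranged from 2.52 to 3.00 with an adjusted p of 2.15e-05 to 0.0606, and the Vegfc call was lost only without SAT 2 months replicate 1 (2.52 ± 0.70, adjusted p = 0.0606). The cluster led by Adamts5 and Ptchd4 had the highest Vegfc level, 31.6 CPM against 6.42 to 11.5 CPM in the other 4, and it held 7.02% and 5.31% of adipocytes in SAT at 2 months and 16.2% and 16.9% at 24 months. Within it Vegfc was at 12.8 and 0 CPM (2 and 0 UMIs) at 2 months and 62.2 and 45.2 CPM (19 and 63 UMIs) at 24 months.

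The other members tested in adipocytes did not pass. Vegfb had a fold change of -0.27 ± 0.28 (adjusted p = 0.56), Angpt1 of 0.12 ± 0.29 (0.822), Flt1 of -0.42 ± 0.46 (0.588), Kdr of 0.83 ± 0.97 (0.614) and Angpt2 of -0.33 ± 0.93 (0.853). The median over the 7 members was -0.27 and that over all genes tested 0.00.

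**Figure D4:**
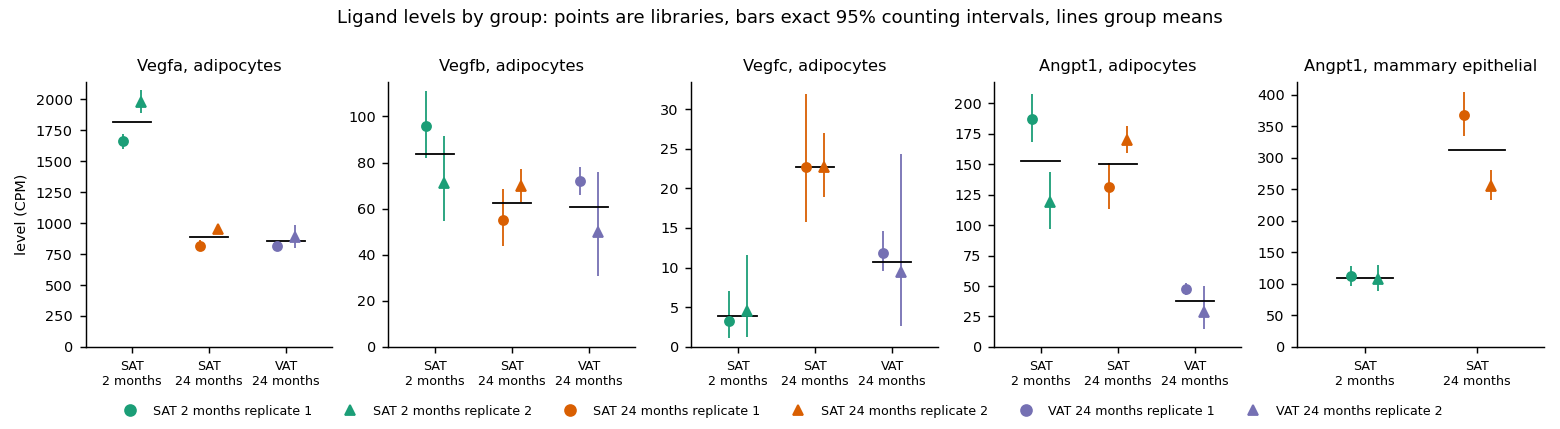
Levels (CPM) of 4 ligands in adipocytes and of Angpt1 in mammary epithelial nuclei by group. Points are libraries, vertical bars exact 95% counting intervals and horizontal lines group means, and Vegfa at 2 months (1659.2 and 1980.4 CPM) lies above all aged libraries, Vegfc at 24 months in SAT (22.7 CPM in both) above all others.

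In mammary epithelial nuclei, a class that was tested after its Angpt1 level had been seen, 1 of 5 members tested was called, with 7.48% of all 11977 genes called. Angpt1 rose by 1.48 ± 0.22 on the log2 scale (adjusted p = 0.00173), and it stayed past the threshold under all 13 alternatives, from 1.19 to 1.71. Vegfa had a fold change of -0.73 ± 0.21 (adjusted p = 0.0537), with 138 and 172 CPM at 2 months and 85.5 and 101 CPM at 24 months. For Vegfc it was 1.29 ± 0.46 (0.128), for Flt1 -0.34 ± 0.44 (0.742) and for Vegfb 0.16 ± 0.46 (0.895). Vegfa passed without SAT 24 months replicate 2 (-0.87 ± 0.26, adjusted p = 0.026), and Vegfc without SAT 2 months replicate 2 (2.11 ± 0.50, 0.00641) or SAT 24 months replicate 1 (1.56 ± 0.44, 0.00721). Over 13 alternatives Vegfa passed under 2 and Vegfc under 4.

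The mammary clusters differed in both their Angpt1 level and their share by age. The cluster led by Itprid1, Fcgbp and Csn3, of which Csn3 encodes a milk casein, had 435 CPM of Angpt1 and made up 35.7% and 52.3% of mammary nuclei at 2 months and 70.6% and 65.0% at 24 months. The cluster led by Syn2, Cdcp3 and Areg had 60.9 CPM and lay almost wholly at 2 months (63.8% and 47.3% against 0.286% and 0.945%), and the one led by Slc7a2 and Wfdc2 had 122 CPM and lay almost wholly at 24 months (29.1% and 34.0% against 0.499% and 0.353%). Within the Fcgbp and Csn3 cluster Angpt1 was at 329 and 303 CPM at 2 months and 552 and 421 CPM at 24 months, which did not overlap. Tested within that cluster by edgeR, 0 of 4 members was called (3.44% of 8729 genes called, 1 member at an unadjusted p under 0.05, 0 called by DESeq2), and Angpt1 had a fold change of 0.64 ± 0.24 (adjusted p = 0.186).

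In endothelial nuclei 0 of 9 members tested was called by edgeR (0.038% of 5268 genes called, 3 members at an unadjusted p under 0.05, 0 called by DESeq2). Flt1 was at 520 and 258 CPM at 2 months and 947 and 1011.5 CPM at 24 months (1.54 ± 0.54, adjusted p = 0.271), and Tek at 177 and 161 CPM and 581 and 362 CPM (1.66 ± 0.46, 0.226). Neither pair of groups overlapped. Kdr was at 487 and 354 CPM at 2 months and 372 and 803 CPM at 24 months (0.76 ± 0.54, 0.532), Flt4 at 354 and 322 CPM and 145 and 116 CPM (-1.16 ± 0.54, 0.353), and Tie1 at 487 and 483 CPM and 391 and 325 CPM (-0.23 ± 0.45, 0.858). The make-up of the class differed between these libraries, since lymphatic nuclei were 24 of 49 and 19 of 39 at 2 months and 10 of 78 and 10 of 272 at 24 months.

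Vegfc in endothelial nuclei rested on 0 and 1 UMI at 2 months and 37 and 62 UMIs at 24 months, a ratio of 21.8 between the groups with a 95% counting interval of 3.83 to 871. Its levels were 0 and 16.1 CPM and 234 and 116 CPM, where 0 UMIs in SAT 2 months replicate 1 allow up to 33.2 CPM. The edgeR fit gave an adjusted p of 0.269 for Vegfc. In blood vascular nuclei alone the Vegfc ratio was 11.7, with a 95% counting interval of 2.05 to 467.

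Restricted to blood vascular nuclei, 0 of 8 members was called by edgeR (0.0462% of 4332 genes called, 1 member at an unadjusted p under 0.05, 0 called by DESeq2). There Flt1 had a fold change of 0.60 ± 0.58 (adjusted p = 0.787), and its levels of 1010.3 and 506 CPM at 2 months lay below the 1024.9 and 1038.1 CPM at 24 months. Tek was at 279 and 253 CPM at 2 months and 634 and 360 CPM at 24 months (1.03 ± 0.56, 0.634), Kdr at 559 and 190 CPM and 370 and 812 CPM (0.83 ± 0.69, 0.747), and Tie1 at 537 and 538 CPM and 397 and 323 CPM (-0.41 ± 0.56, 0.86). With a library left out, the fold change ran from 0.11 to 2.01 for Kdr and from 0.19 to 1.37 for Flt1. The young libraries held 25 and 20 blood vascular nuclei.

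In FAPs 0 of 6 members was called by edgeR (0% of 8537 genes called, 0 members at an unadjusted p under 0.05, 0 called by DESeq2). Tek had a fold change of 1.32 ± 0.94 (adjusted p = 0.642) and Vegfa, at 219 and 123 CPM at 2 months and 294 and 262 CPM at 24 months, of 0.72 ± 0.43 (0.586). In macrophages 0 of 2 members was called by edgeR (0.0657% of 7611 genes called, 1 member at an unadjusted p under 0.05, 0 called by DESeq2). Flt1, which guides macrophage migration, was at 17.6 and 33.0 CPM at 2 months and 43.6 and 66.6 CPM at 24 months (1.23 ± 0.56, 0.388), while T cells had 22.2 and 19.7 CPM and 13.7 and 41.6 CPM.

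Summed over all nuclei, 0 of 10 members was called by edgeR (0% of 21729 genes called, 6 members at an unadjusted p under 0.05, 2 called by DESeq2, namely Flt1 and Tie1, beside 1.55% of the genes it tested). All 5 receptors had fold changes above 0, from 1.04 ± 0.61 for Flt4 to 2.42 ± 0.84 for Kdr, with adjusted p-values of 0.601 to 0.662. Without SAT 24 months replicate 2 the fold change of Kdr was 0.64 ± 0.58 (adjusted p = 1), and without SAT 24 months replicate 1 it was 3.21 ± 0.54 (0.5). Endothelial nuclei were 49 of 4595 and 39 of 5776 nuclei at 2 months and 78 of 2490 and 272 of 4709 at 24 months, and their part in these sums was not tested.

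**Figure D5:**
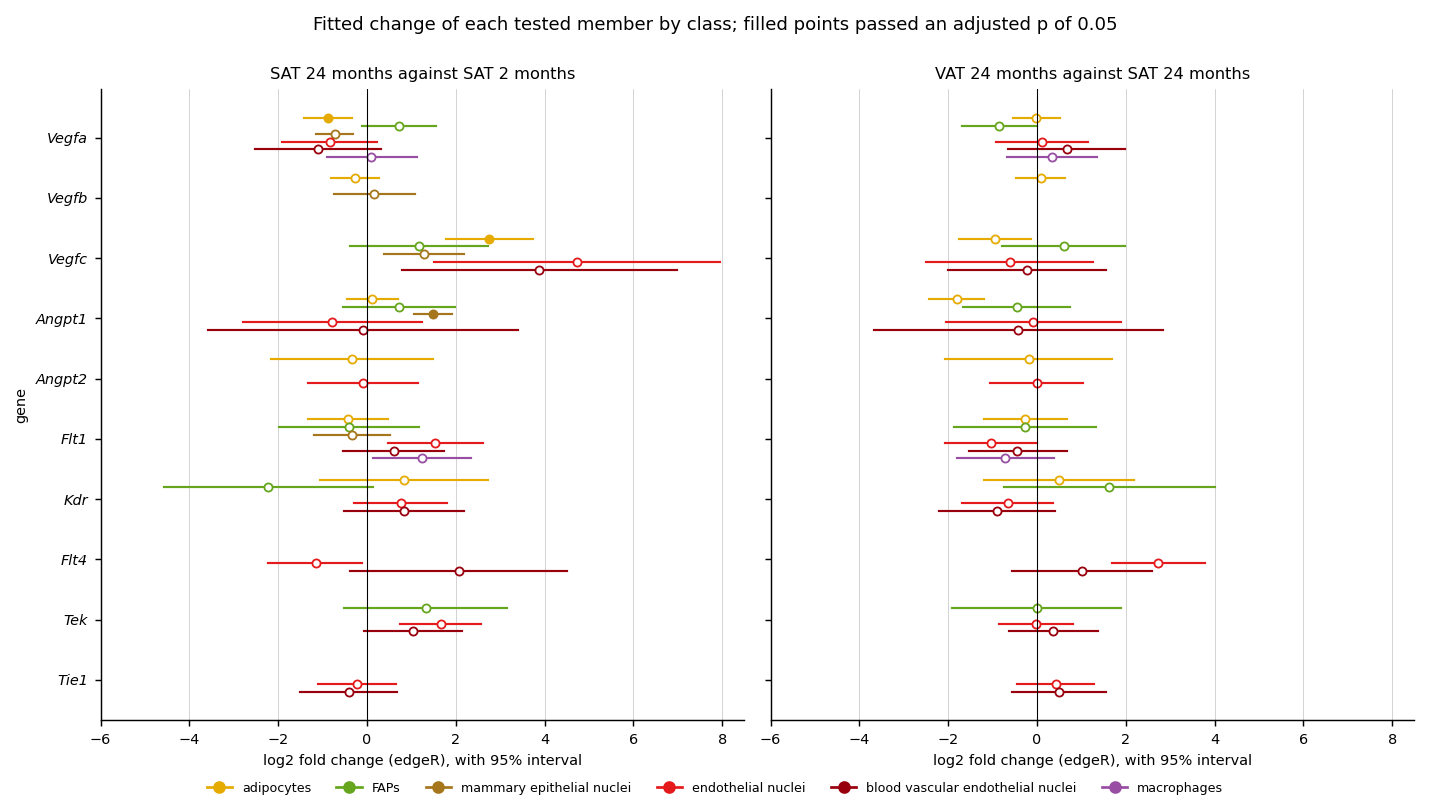
Fitted log2 fold change of each tested gene by class with its 95% interval, for SAT at 24 against 2 months (left) and VAT against SAT at 24 months (right). Filled points passed an adjusted p of 0.05, which were Vegfa and Vegfc in adipocytes and Angpt1 in mammary epithelial nuclei, all in the age comparison.

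The other comparison asks how VAT and SAT differ at 24 months, and VAT replicate 2 bears on all of it. In adipocytes 0 of 7 members was called by edgeR (0.124% of 12913 genes called, 2 members at an unadjusted p under 0.05, 1 called by DESeq2). Angpt1, at 131 and 170 CPM in SAT and 47.3 and 28.4 CPM in VAT, had a fold change of -1.81 ± 0.32 on the log2 scale (adjusted p = 0.0542) just outside the threshold. Angpt1 passed with a replicate block (closing section), though the labels do not tie replicate numbers to mice. It passed under 7 of 14 alternatives, DESeq2 among them (adjusted p = 0.00187), and it passed without SAT 24 months replicate 1 (-1.96 ± 0.34, 0.000363) or replicate 2 (-1.67 ± 0.36, 0.0204). Without VAT replicate 2 the fold change of Angpt1 was -1.61 ± 0.36 (0.112), and without VAT replicate 1 it was -2.44 ± 0.49 (0.164).

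Angpt1 was lower in VAT replicate 1 than in both aged SAT libraries in all 5 adipocyte clusters. In the Fam13a and Acacb cluster it was 70.9 CPM in VAT replicate 1 and 180 and 308 CPM in SAT at 24 months, and in the Adamts5 and Ptchd4 cluster 29.5 CPM against 115 and 92.5 CPM. Vegfa, Vegfb and Vegfc in adipocytes had fold changes of -0.02 ± 0.27 (adjusted p = 0.996), 0.08 ± 0.28 (0.977) and -0.95 ± 0.42 (0.7). The 95% interval of the Vegfa difference ran from -0.55 to 0.51 on the log2 scale.

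In endothelial nuclei 0 of 9 members was called by edgeR (0% of 5268 genes called, 1 member at an unadjusted p under 0.05, 1 called by DESeq2, namely Flt4). Flt4 was at 145 and 116 CPM in SAT and 529 and 1319 CPM in VAT (2.73 ± 0.54, adjusted p = 0.167). Without VAT replicate 1 it passed (3.23 ± 0.57, 0.00225), as it did without SAT 24 months replicate 1 (2.78 ± 0.72, 0.0405), and without VAT replicate 2 the Flt4 fold change was 1.98 ± 0.60 (0.65). Vegfc, at 234 and 116 CPM in SAT and 231 and 13.4 CPM in VAT (-0.61 ± 0.96, 0.891), passed without VAT replicate 1 (-3.71 ± 0.97, 0.0379). Lymphatic nuclei were 22 of 95 and 107 of 191 endothelial nuclei in VAT, against 10 of 78 and 10 of 272 in SAT.

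Flt1 had a fold change of -1.04 ± 0.53 (adjusted p = 0.702), Kdr of -0.65 ± 0.52 (0.789), Tek of -0.03 ± 0.42 (0.989) and Tie1 of 0.42 ± 0.44 (0.827). In blood vascular nuclei 0 of 8 members was called by edgeR (0% of 4332 genes called, 0 members at an unadjusted p under 0.05, 0 called by DESeq2). In macrophages 0 of 2 was called (0.0526% of 7611 genes called, 0 at an unadjusted p under 0.05, 0 called by DESeq2).

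In FAPs 0 of 6 members was called by edgeR (0% of 8537 genes called, 0 members at an unadjusted p under 0.05, 0 called by DESeq2). The fold change of Tek was 0.00 ± 0.97 (adjusted p = 1), and it was set by which VAT library was used, with -2.79 ± 0.61 without VAT replicate 1 (adjusted p = 0.00353) and 0.94 ± 0.48 without VAT replicate 2 (adjusted p = 1). Over all nuclei 0 of 10 members was called by edgeR (0.0138% of 21729 genes called, 2 members at an unadjusted p under 0.05, 0 called by DESeq2). Angpt2 was at 6.27 and 9.58 CPM in SAT and 4.67 and 97.5 CPM in VAT (2.5 ± 1.14, adjusted p = 0.694). Without VAT replicate 2 its fold change was -0.55 ± 0.55 (0.693), and without VAT replicate 1 it was 3.38 ± 0.43 (0.00932). Angpt1 over all nuclei had a fold change of -2.0 ± 0.61 (0.531), and without VAT replicate 1 of -3.08 ± 0.49 (0.0191).

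Another 32 genes of the pathway were listed as partners of the members, 25 of which were tested in adipocytes, where 5 rose and 2 fell at 24 months in SAT, beside 14.8% of all 12913 genes called. Of the 4 listed genes whose products bind VEGF outside the cell, 3 rose, namely the thrombospondins Thbs1 (5.15 ± 0.61, adjusted p = 0.00033) and Thbs2 (1.55 ± 0.32, 0.00704) and the protease Adamts1 (2.82 ± 0.37, 0.000548). Over the alternatives the fold change of Thbs1 ran from 4.14 to 6.49. Svep1, a matrix protein that binds Tie1, rose by 1.70 ± 0.35 (0.00784) and the VEGF co-receptor Nrp1 by 1.10 ± 0.29 (0.0236). Adamts3, the protease that activates VEGF-C, fell by 1.56 (SE 0.44, 0.0338) and Nos3, the endothelial nitric oxide synthase, by 0.99 (SE 0.28, 0.0349). Thbs2, Svep1, Nrp1, Adamts3 and Nos3 each lost their calls under 1 to 7 of 14 alternatives, and Thbs2, Nrp1 and Nos3 are named after their values were seen.

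Of the 8 listed genes of oxygen sensing and Vegfa transcription, 0 passed in adipocytes by age with edgeR (2 at an unadjusted p under 0.05, 0 called by DESeq2). Hif1a had a fold change of 0.61 ± 0.38 (adjusted p = 0.303), Epas1 of -0.77 ± 0.29 (0.0957) and Arnt of -0.42 ± 0.26 (0.309). The median over the 25 genes was -0.14. In endothelial nuclei 0 of 18 listed genes passed by age with edgeR (5 at an unadjusted p under 0.05, 0 called by DESeq2), with Nrp1 at 2.41 ± 0.58 (0.186), Ptprb, the phosphatase of Tie2, at 1.44 ± 0.54 (0.296) and Nrp2, the co-receptor of VEGF-C, at 0.16 ± 0.47 (0.91). In mammary epithelial nuclei Thbs1 (1.96 ± 0.20, adjusted p = 0.000185), Nrp1 (1.82 ± 0.39, 0.0157) and the lymphatic ligand Vegfd (1.81 ± 0.50, 0.0483) rose, and Hif1a (-1.65 ± 0.25, 0.00233) and Esrra (-0.96 ± 0.24, 0.0337, named after its value was seen) fell, of 24 tested, beside 7.48% of all 11977 genes called. Thbs1 and Hif1a passed under all 13 alternatives, Nrp1 under 12, Esrra under 9 and Vegfd under 8, and DESeq2 called 3 of the 24. Vegfd lost its call without SAT 2 months replicate 1 (2.11 ± 0.65, adjusted p = 0.0907) or replicate 2 (1.63 ± 0.52, 0.0555) and without SAT 24 months replicate 1 (1.01 ± 0.60, 0.396). Within the Fcgbp and Csn3 cluster 14 listed genes were tested, of which Thbs1 rose (1.58 ± 0.26, 0.00379) and Pgf, whose product is a VEGFR1 ligand, fell (-2.34 ± 0.49, 0.0137), beside 3.44% of all 8729 genes called. There Hif1a had a fold change of -0.03 ± 0.59 (0.995) and Esrra of -0.90 ± 0.41 (0.322), and Nrp1 and Vegfd did not pass the filter on low counts. In the comparison of the depots 0 listed genes passed with edgeR or DESeq2 in any class tested, and with edgeR 0 to 5 genes per class had an unadjusted p under 0.05.

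Across 15 classes, the genes whose mean level was most like that of a member were described by Pearson's r of log2(CPM + 10) over 14717 genes. For the receptors they were Tmem252 (r = 0.964) for Flt1, Adgrf5 (0.964) for Kdr, Clca2 (0.983) for Flt4, Ramp2 (0.977) for Tek and Ccm2l (0.988) for Tie1. For the ligands they were Ifi27 (0.917) for Vegfa, Slc25a1 (0.843) for Vegfb, Mgp (0.908) for Vegfc, Ndel1 (0.911) for Angpt1 and Unc5b (0.867) for Angpt2. The classes share libraries, and these values are a description only.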

How the data were processed

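Nuclei of 6 libraries were captured on a Singleron chip, and the authors ran Celescope, with GRCm39 as the genome. Its version, the annotation release and the strand setting are not given in the sources used here. The deposited matrices hold raw counts of UMIs per gene and barcode. The study's filter was applied (more than 500 genes, more than 1000 UMIs and under 15% mitochondrial UMIs).

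Nuclei were clustered with leidenalg 0.10.2 (1000 variable genes, 30 components, 20 neighbours, resolution 2.0, then 1.0 within immune, vascular and epithelial nuclei). The 10 genes and 32 pathway genes were left out. Components were corrected for library by the Harmony method, written out in code. The second round of epithelial nuclei, which took in mesothelial, ovarian and oviduct nuclei, was not corrected. Clusters were named from marker lists, by rules of naming set after the clusters had been looked at. The 3199 unnamed nuclei lay in clusters led by genes of another class, close to another class, or without leading markers of their own. Among them were 98 nuclei led by Ppara, Gpd1 and Acaca, 93.9% from a single library, whose best list was that of adipocytes. Scrublet, run in scanpy 1.11.5, marked 0.133% of nuclei and so did not work as a doublet caller. Removal of the 6% with the highest scores was added as an alternative after the data had been seen.

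UMIs were summed per library and class and tested with edgeR 4.0.16 (quasi-likelihood, TMM, filterByExpr, all 6 libraries in a fit, Benjamini-Hochberg adjustment over all genes tested, called under 0.05), in R 4.3.3. DESeq2 1.42.0 was an alternative, and the others are named in the closing section. Classes with fewer than 20 nuclei in a library were left out of levels, and the contrasts of mesothelial nuclei could not be fitted. Scripts were tested on simulated data. Positions are from GENCODE M39.

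The genes, lists and parts of the tests were chosen with earlier results of these data known. All 10 members are named. From the pathway list up to 4 called genes per class and contrast were named by size of fold change, with Nrp1, Nrp2 and Ptprb in endothelial nuclei and Hif1a, Epas1 and Arnt in adipocytes, and the 3 genes of highest correlation were taken for each member, the first of which is printed.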

Additional observations from a re-analysis of the deposited data

Results flagged for a closer look

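In the age comparison in SAT, 4 pairs of classes had all libraries of a group on opposite sides, and in none was the difference between classes tested. Vegfa had a log2 fold change of -0.88 in adipocytes and 0.72 in FAPs, a difference of 1.60. Between FAPs (0.72) and mammary epithelial nuclei (-0.73) Vegfa differed by -1.45. Flt1 had a fold change of 1.54 in endothelial nuclei, 1.23 in macrophages and -0.34 in mammary epithelial nuclei, so the mammary value differed from these by -1.88 and -1.57. The mean level of Flt1 in mammary nuclei was 14.6 CPM ± 3.02 (n = 4), below the 28.4 CPM ± 14 (n = 5) of T cells. Of these fold changes, that of Vegfa in adipocytes passed the threshold.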

How the results depend on the processing

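Alternatives were other scalings, DESeq2, no filter on low counts, the 4 libraries of a contrast alone, looser or other filters on nuclei, clustering without batch correction, a replicate block and leaving out a library, where a lone library was assumed to vary like the others. The highest Scrublet scores, the mammary tests and the pathway counts were added after the data had been seen. The tests rest on 2 libraries a group, with as few as 20 blood vascular nuclei in a library. All levels and shares recomputed moved by less than their spread (64 values). Of fold changes refitted with all libraries kept, 609 kept direction and call, 7 reversed, 22 newly passed and 14 no longer passed. With a library left out 218 kept both, 13 reversed, 12 newly passed and 25 no longer passed.

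With library size alone Angpt1 in adipocytes by age turned to -0.05, Nrp2 in endothelial nuclei by age to -0.10 and Tek in endothelial nuclei by depot to 0.07, and the latter was 0.01 with 4 libraries alone and 0.06 without batch correction. With looser filters Vegfa was -0.03 in FAPs by age and 0.01 in adipocytes by depot. The cause was not tested for any of these changes.

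By age in adipocytes 1 member was called with 4 libraries alone, DESeq2 size factors, looser filters, no batch correction or no filter on low counts (6.79% to 19% of all genes). By depot 1 was called with DESeq2, its size factors, the highest Scrublet scores removed, no filter or the replicate block (0.17% to 0.441% of all genes). Over all nuclei 2 members were called by age with DESeq2 (1.55% of all genes called) and 4 without a filter (2.29%), and 2 by depot without a filter (2.49%). In endothelial nuclei 1 was called by age without a filter (0.993%), and 1 by depot with DESeq2 (0.323%) or without a filter (0.451%). In mammary epithelial nuclei 2 were called without a filter (4.87%). Of pathway genes without a filter, 7 were called by age over all nuclei, 2 in endothelial nuclei, 2 in macrophages, 8 in mammary nuclei and 4 in their Fcgbp and Csn3 cluster, and 1 by depot in endothelial nuclei. DESeq2 called 1 over all nuclei (beside 1.55% of all genes) and 3 in mammary nuclei by age, and 4 libraries alone 1 in macrophages. Where no share of all genes is given for a fit, its count is not read as a result.

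The labels do not say that a replicate number marks a shared mouse. Over all pairs of groups, deviations of same-numbered libraries correlated at -0.091 to 0.107 in adipocytes and at -0.468 to 0.18 over all nuclei. Only SAT and VAT at 24 months could share mice, and that pair gave 0.107 and -0.468. A pairing by number was not shown, and shared mice are not settled by it. With the replicate block 3 members (Angpt1, Vegfa and Vegfc, beside 10.2% of all genes) and 8 pathway genes were called in mammary epithelial nuclei, and by depot in adipocytes 1 member, Angpt1 (-1.90, edgeR adjusted p = 0.0129). Mammary nuclei were compared between ages, where same-numbered libraries come from different mice, so that block rests on no pairing.

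Leaving out 1 library at a time, fold changes by age ran from -0.14 to 0.55 for Angpt1 and -0.43 to 0.02 for Vegfb in adipocytes and from -0.05 to 1.3 for Kdr in endothelial nuclei. By depot they ran from -0.13 to 0.01 for Vegfa and -0.38 to 0.26 for Vegfb in adipocytes. Over all nuclei the depot range was -0.55 to 3.38 for Angpt2, and in blood vascular nuclei -0.08 to 0.82 for Tie1. Endothelial nuclei by depot gave -1.14 to 0.20 for Kdr, -0.01 to 0.78 for Nrp2 and -0.23 to 0.22 for Tek. For Vegfc the range there was -3.71 to 0.41. The counts of called genes that follow have no share of all genes beside them, so they are not read as results. Members called ranged from 0 to 1 in adipocytes by age and by depot and in FAPs by depot, from 0 to 2 over all nuclei and in endothelial nuclei by depot, and from 1 to 2 in mammary nuclei. Pathway genes called ranged from 2 to 6 in adipocytes, 0 to 3 in endothelial nuclei, 0 to 1 in blood vascular nuclei, 2 to 8 in mammary nuclei and 0 to 2 in their Fcgbp and Csn3 cluster by age, and from 0 to 1 in FAPs and 0 to 3 over all nuclei by depot.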

Other observations

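Clusters that stayed unnamed also held members. A cluster of 172 nuclei led by Csmd1 and by Ccl21a, Ccl19 and Cxcl12, which are chemokine genes of lymphoid stroma, had 675 CPM of Vegfa and 125 CPM of Vegfc. Its Vegfa level was 927 and 648 CPM in SAT at 2 months, 323 and 828 CPM in SAT at 24 months, and 0 and 607 CPM in VAT. A cluster of 114 nuclei led by Pcdh15, Cxcl13 and Cr2, genes of follicular dendritic cells, had 563 CPM of Vegfa and 101 CPM of Flt4. A cluster of 344 nuclei led by Kctd14, Dync1i1 and Rhox8, of which 343 came from VAT replicate 2, had 216 CPM of Angpt2.

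Kdr was found in small immune clusters, at 76.5 CPM (21 UMIs) in 167 plasmacytoid dendritic nuclei and 71.5 CPM (29 UMIs) in 235 conventional dendritic nuclei. An oviduct cluster of 134 nuclei had 175 CPM of Kdr.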
